A study of Mus musculus with 2 samples.

Results

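The 10 genes described here encode 4 families of RNA-binding proteins that set alternative splicing in neurons: Rbfox1, Rbfox2 and Rbfox3, Nova1 and Nova2, Ptbp1, Ptbp2 and Ptbp3, and Srrm3 and Srrm4. They were chosen by gene symbol, as every transcript model that the submitters assigned to them, and are 10 of 18366 annotated genes with at least 1 read. The series holds 2 long-read RNA-seq libraries of 1 group, biological replicates 1 and 2, and has no treatment, genotype or tissue contrast. The tissue was left cerebral cortex of mice of the hybrid strain B6CASTF1/J, male and 14 days old, and each library took 2 µg of total RNA with Ambion and Lexogen spike-in RNA added. The labels give both libraries the same donor identifier and also speak of 3 males, so whether the replicates come from separate animals, pools or a shared source is not known. Differences between them therefore measure the spread between 2 libraries only. The regulator models numbered 135 in replicate 1 and 149 in replicate 2.

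Rbfox proteins bind a short motif beside exons and promote or repress inclusion by position, and Rbfox3 is NeuN, the antigen used to stain mature neurons. Nova proteins act likewise through another motif, and were first known as antigens of a paraneoplastic disease. Ptbp1 is a general repressor of neuronal exons outside neurons, Ptbp2 is its neuronal relative, and Ptbp3 is a further paralog. Srrm3 and Srrm4 promote the inclusion of microexons in neurons. Several of these proteins bind their own transcripts, and exons of the genes themselves are spliced into or out of the RNA.

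Exon sequences on which several results turn are shown first. The RNA recognition motif of each Rbfox protein is encoded in part by a 93-base exon, and skipping of this exon is known to give a protein that cannot bind RNA. Capitals mark the 26 positions that are not the same in all 3 paralogs. All sequences were read from the annotated mouse transcripts (GENCODE M21), not from the reads of these hybrid mice, and coordinates are mm10.
Rbfox1 93-base exon, chr16:7292185-7292277 (+): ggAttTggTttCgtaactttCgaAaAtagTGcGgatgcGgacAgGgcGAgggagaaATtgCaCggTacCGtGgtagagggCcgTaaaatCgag
Rbfox2 93-base exon, chr15:77105577-77105669 (-): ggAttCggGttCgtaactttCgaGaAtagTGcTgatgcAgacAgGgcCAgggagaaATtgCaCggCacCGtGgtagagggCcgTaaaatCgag
Rbfox3 93-base exon, chr11:118502842-118502934 (-): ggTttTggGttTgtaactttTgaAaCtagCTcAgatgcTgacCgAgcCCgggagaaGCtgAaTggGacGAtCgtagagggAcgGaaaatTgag
Rbfox1 and Rbfox2 shared 86 of the 93 bases (92.5%), and each shared 69 (74.2%) with Rbfox3. Further downstream, Rbfox1 and Rbfox2 each carry a 40-base exon known from brain and a 43-base exon known from muscle, and the choice between them changes the C-terminal part of the protein. Capitals in the next 4 sequences mark the bases that differ between the paralogs within each pair.
Rbfox1 40-base exon, chr16:7363865-7363904 (+): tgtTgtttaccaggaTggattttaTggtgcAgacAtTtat
Rbfox2 40-base exon, chr15:77094451-77094490 (-): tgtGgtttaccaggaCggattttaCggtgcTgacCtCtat
Rbfox1 43-base exon, chr16:7369801-7369843 (+): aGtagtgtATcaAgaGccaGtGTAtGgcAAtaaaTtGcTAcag
Rbfox2 43-base exon, chr15:77091812-77091854 (-): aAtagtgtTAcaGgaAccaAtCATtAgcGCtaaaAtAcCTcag
The 40-base exons shared 34 of 40 bases (85.0%) and the 43-base exons shared 27 of 43 (62.8%). The Ptbp genes share a 34-base exon whose skipping shifts the reading frame. For Ptbp1 and Ptbp2 the annotation lists 2 transcripts each of the nonsense-mediated decay type that pass over it, and no coding one. Capitals mark the 15 positions that are not the same in all 3 genes.
Ptbp1 34-base exon, chr10:79862014-79862047 (+): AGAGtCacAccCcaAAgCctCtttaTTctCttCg
Ptbp2 34-base exon, chr3:119724612-119724645 (-): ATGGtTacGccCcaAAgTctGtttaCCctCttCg
Ptbp3 34-base exon, chr4:59485339-59485372 (-): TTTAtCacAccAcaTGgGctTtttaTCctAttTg
The Ptbp1 and Ptbp2 exons shared 26 of 34 bases (76.5%), and that of Ptbp3 shared 22 with Ptbp1 and 21 with Ptbp2.

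The libraries held 775048 and 924222 mouse reads in replicates 1 and 2, so 1 read equalled 1.29 and 1.08 CPM (reads scaled to a total of 1e+06), and the floor of 3 reads equalled 3.87 and 3.25 CPM. In long-read data 1 read stands for 1 molecule, so levels are compared per read and not per length. Annotated lengths differ widely: 1542 bases for Rbfox3-204, 1451 for Rbfox1-208, 3110 for Ptbp1-216 and 8372 for Nova2-202. Whether transcript length affected the counts, and so the order of the genes, was not tested. PCR copies cannot be told from molecules, and intervals cover counting error only. Pan-neuronal markers (4 of 4 with reads) summed to 2190 and 2105 CPM and excitatory markers (5 of 5) to 1600 and 1526 CPM. The libraries differed in markers of neighbouring regions: the 5 striatal markers summed to 906 CPM in replicate 1 and 220 CPM in replicate 2 with Drd2 at 0 in a library, and the 3 choroid plexus markers to 38.7 and 256 CPM with Clic6 at 0 in a library. Inhibitory neuron markers (4 of 4) summed to 394 and 289 CPM, and those of myelinating oligodendrocytes (4 of 4) to 2498 and 1618 CPM. The part of these differences in the results below was not tested. In tissue RNA, fewer cells of a type and less RNA per cell cannot be told apart.

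Rbfox3 (chr11:118489762-118911597, minus strand) was the most abundant regulator, with 254 reads (328 CPM) in replicate 1 and 367 (397 CPM) in replicate 2. Its mean of 362 CPM ± 49.1 (SD, n = 2) ranked 367th of 18366 genes. Ptbp2 (chr3:119718742-119784466, minus strand) followed with 64 and 95 reads, or 92.7 CPM ± 14.3 (SD, n = 2). Rbfox2 (chr15:77078990-77307004, minus strand) had 65 and 67 reads, or 78.2 CPM ± 8.04. Rbfox1 (chr16:5885355-7411526, plus strand), whose annotated span of 1526172 bases is the longest of the 10, had 54 and 63 reads, or 68.9 CPM ± 1.07. The Rbfox3 values lay above those of every other regulator in both libraries. Those of Ptbp2 and Rbfox2 overlapped.

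The Nova genes, Srrm3, Ptbp1, Srrm4 and Ptbp3 were lower still. Nova1 (chr12:46694517-46818929, minus strand) had 34 reads (43.9 CPM) in replicate 1 and 20 (21.6 CPM) in replicate 2, a mean of 32.8 CPM ± 15.7 (SD, n = 2). Nova2 (chr7:18925888-18965319, plus strand) had 18 and 21 reads, or 22.97 CPM ± 0.355. Srrm3 (chr5:135806890-135874772, plus strand) had 13 and 27 reads, or 22.99 CPM ± 8.80, and its range overlapped those of both Nova genes. Ptbp1 (chr10:79854427-79864771, plus strand), the shortest gene of the 10 with a span of 10345 bases, had 10 and 16 reads, or 15.1 CPM ± 3.12. Srrm4 (chr5:116439275-116591817, minus strand) had 5 and 7 reads and Ptbp3 (chr4:59471868-59549364, minus strand) 3 and 4, which are 7.01 CPM ± 0.794 and 4.10 CPM ± 0.323. Ptbp3 was at the floor of 3 reads in replicate 1.

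By family, the 3 Rbfox genes summed to 510 CPM ± 39.9, the 3 Ptbp genes to 112 ± 17.7, the 2 Nova genes to 55.7 ± 16.1 and the 2 Srrm genes to 30.01 ± 9.59 (SD, n = 2). All 10 together gave 520 and 687 reads, or 707 CPM ± 51.2. Ptbp2 exceeded Ptbp1 in both libraries, by 64 reads to 10 in replicate 1 and by 95 to 16 in replicate 2.

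**Figure D1:**
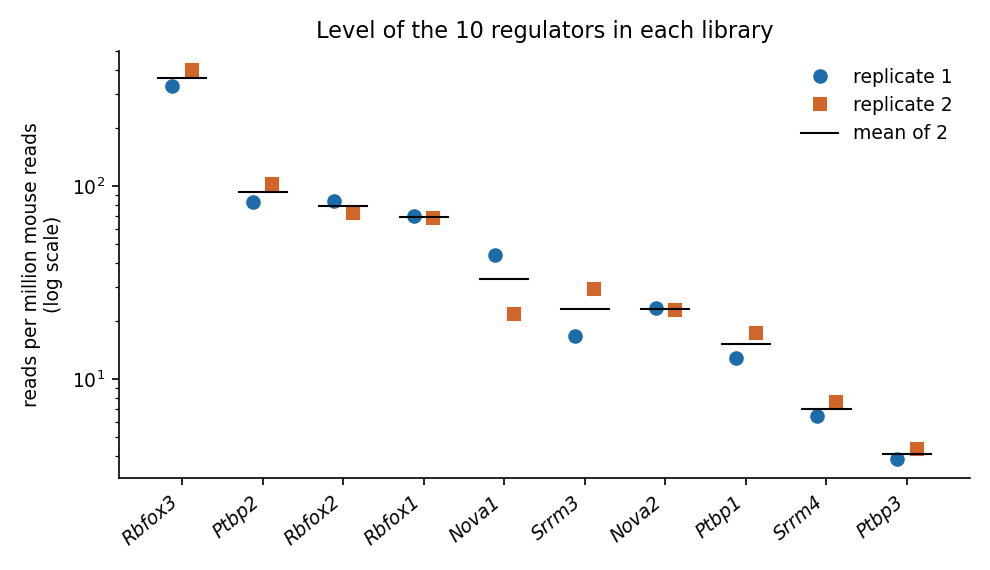
CPM (log axis) of each regulator, ordered by mean; circles are replicate 1, squares replicate 2 and bars the mean of 2. Rbfox3 stood at 328 and 397 CPM, above Ptbp2 at 82.6 and 103 CPM, and Nova1 and Srrm3 had the widest gaps between the libraries.

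The reads of each gene were then compared between the libraries. Fisher's exact tests, two-sided, of replicate 2 against replicate 1 over 11203 genes with at least 10 reads, with Benjamini-Hochberg adjustment, called 236 genes (2.11%), of which 123 were higher and 113 lower in replicate 2. Of the 9 regulators with 10 or more reads, 0 were called, and 2 had an unadjusted p under 0.05, as did 1254 of the 11203 genes. Nova1 was lower in replicate 2 by a log2 ratio of -1.005 (95% interval -1.79 to -0.22, Fisher's exact p = 0.0133, adjusted p = 0.235). Rbfox3 was higher by 0.28 (0.05 to 0.51, Fisher's exact p = 0.0194, adjusted p = 0.280). The ratio for Srrm3 was 0.77 with an interval from -0.17 to 1.71 (Fisher's exact test, adjusted p = 0.607), and Ptbp3 was not tested. The log2 ratios of the 9 tested ran from -1.005 to 0.77 with a median of 0.19, against a median of -0.01 over the genes tested. Among 30 other splicing regulators and cofactors, 28 could be tested and 0 were called, with 2 at an unadjusted p under 0.05. The highest of these were Celf4 at 538 CPM ± 56.8, Khdrbs3 at 345 ± 26.2 and Matr3 at 338 ± 65.3 (SD, n = 2), so that Celf4 had a higher mean than Rbfox3. Matr3, a nuclear matrix protein, had 298 and 270 reads (log2 ratio -0.40, Fisher's exact test, adjusted p = 0.0542).

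How much of each gene was read as an annotated transcript varied widely. Each read carries a class from the submitters' models. Known stands for a chain of introns in the annotation, and ISM for a part of such a transcript, which can be a single exon. NIC stands for a new combination of known splice sites, NNC for a chain with an unannotated site, and Genomic for a model without the gene's splicing. These classes did not follow M21 throughout. Rbfox1 had 11 NNC reads, yet 23 of its 56 spliced reads began at a donor absent from M21. The NNC share is thus not the share of reads with a site absent from M21. Over the 1207 reads of the 10 genes, 39.4% were Known, 15.5% ISM, 21.04% NIC, 5.39% NNC and 18.6% Genomic. Over all mouse reads the shares were 65.2%, 9.93%, 6.25%, 4.12% and 5.64%. The rest were Antisense (8.11%) and Intergenic (0.76%), classes that no read of the 10 genes had, so the denominators differ. Ptbp2 had 126 Known reads of 159 and no Genomic read. Genomic models took 59 of 117 reads of Rbfox1, 68 of 132 of Rbfox2 and 25 of 39 of Nova2, whereas Rbfox3 had 40 of 621. Srrm3 had no Known read, and its ISM reads were 3 of 13 (23.1%) in replicate 1 and 21 of 27 (77.8%) in replicate 2. Its spliced reads numbered 8 and 11, so the 21 ISM reads include reads without a splice junction. Genomic reads of Srrm3 were 5 and 3. Srrm4 likewise had 3 and 0 Genomic reads and 1 and 6 ISM reads. These ISM shares therefore do not compare like reads between the libraries.

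**Figure D2:**
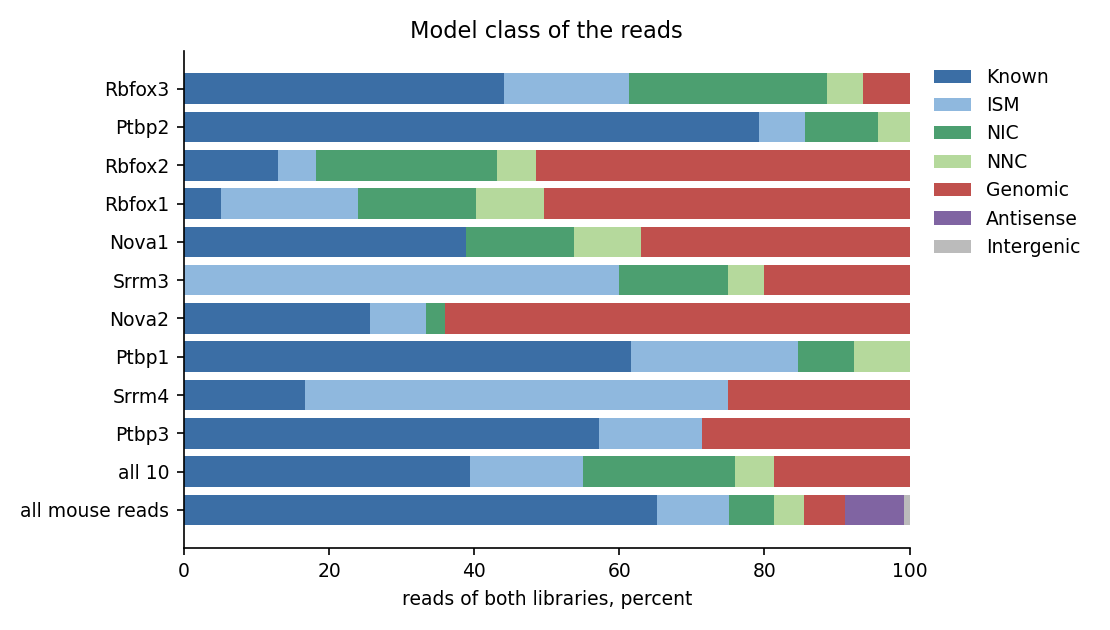
Share of the reads of both libraries (percent) in each model class, for each regulator, for all 10 and for all mouse reads. Genomic models are the largest class of Rbfox1, Rbfox2 and Nova2 reads (50.4%, 51.5% and 64.1%), and Known models that of Ptbp2 reads.

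Reads without a splice junction numbered 246 over the 10 genes, 113 and 133 in the libraries. Of these, 204 lay mostly in an annotated last exon, among them 67 of Rbfox2, 44 of Rbfox1, 38 of Rbfox3 and 24 of Nova2. Another 22 lay within introns, 15 of them in Rbfox1, and 5 touched another annotated exon. The remaining 15 came from a Nova1 model of a single base, 7 and 8 reads, and are a deposited feature that carries no information on structure. Counting spliced reads alone lowered the level of Rbfox1 to 33.1 CPM, that of Rbfox2 to 37.9, that of Nova2 to 7.99 and that of Nova1 to 20.7. Likewise Srrm3 came to 11.1 CPM, Srrm4 to 2.37 and Ptbp3 to 3.02, whereas Rbfox3 was at 339, Ptbp2 at 92.7 and Ptbp1 at 14.5.

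Among spliced reads, 60 of 64 of Rbfox2 (93.8%) and 150 of 159 of Ptbp2 (94.3%) ran from an annotated first donor to an annotated last acceptor. The share was 457 of 581 (78.7%) for Rbfox3, 27 of 56 (48.2%) for Rbfox1 and 6 of 19 (31.6%) for Srrm3. Over the 10 genes, 771 of 961 spliced reads (80.2%) began at an annotated first donor, 149 at an annotated donor that is internal, and 41 at an unannotated donor. Reads cut short at the 5′ end and true internal starts cannot be told apart here.

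Rbfox2 reads began mainly at 3 first exons. The donor nearest the annotated start, 640 bases in, had 7 reads in each library (14 of 64 reads, 21.9%, 95% Wilson interval 13.5 to 33.4%). The donor 61514 bases in had 12 and 11 (35.9%, 25.3 to 48.2%), and that 153474 bases in had 8 and 12 (31.3%, 21.2 to 43.4%). The intervals of all 3 overlapped. Rbfox2 was the only regulator that met the minimum of reads and of donors for the first exon test, and its leading donor took 12 of 30 annotated-first reads in replicate 1 and 11 of 30 in replicate 2 (two-sided Fisher's exact test, adjusted p = 1). That test called 2 of 1462 genes (0.137%).

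Rbfox1 starts were spread over the 3′ part of its long span. Its most used first donor, at chr16:7040025 and 1154670 bases from the annotated start, is not in the M21 annotation and gave 8 and 7 reads (15 of 56, 26.8%, Wilson interval 17.0 to 39.6%). Another unannotated donor, at 7217829, had 2 and 4 reads. The annotated donor at 7193877 (transcript Rbfox1-208) had 4 and 5. Donors at 7224550 (8 and 5 reads) and 7353064 (4 and 2 reads) are annotated as first but also lie inside longer transcripts, so those reads may be cut short. Unannotated donors together gave 23 of 56 spliced reads (41.1%).

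Rbfox3, Ptbp2, Nova1, Ptbp1, Nova2 and Ptbp3 were each led by 1 donor. In Rbfox3 the donor 2293 bases from the annotated start had 170 of 237 and 275 of 344 spliced reads (76.6%, Wilson interval 73.0 to 79.9%). In Ptbp2 the leading donor had 57 of 64 and 88 of 95 (91.2%), in Nova1 18 of 22 and 11 of 12 (85.3%), in Ptbp1 8 of 9 and 11 of 16 (76.0%), and in Nova2 3 of 4 and 8 of 10 (78.6%). All 5 spliced Ptbp3 reads began at the leading donor. In Srrm3 only 5 of 19 began at the annotated start, and 8 began at a donor 61629 bases further in, which is internal in the annotation. Srrm4 had 4 spliced reads, each with a first donor of its own.

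**Figure D3:**
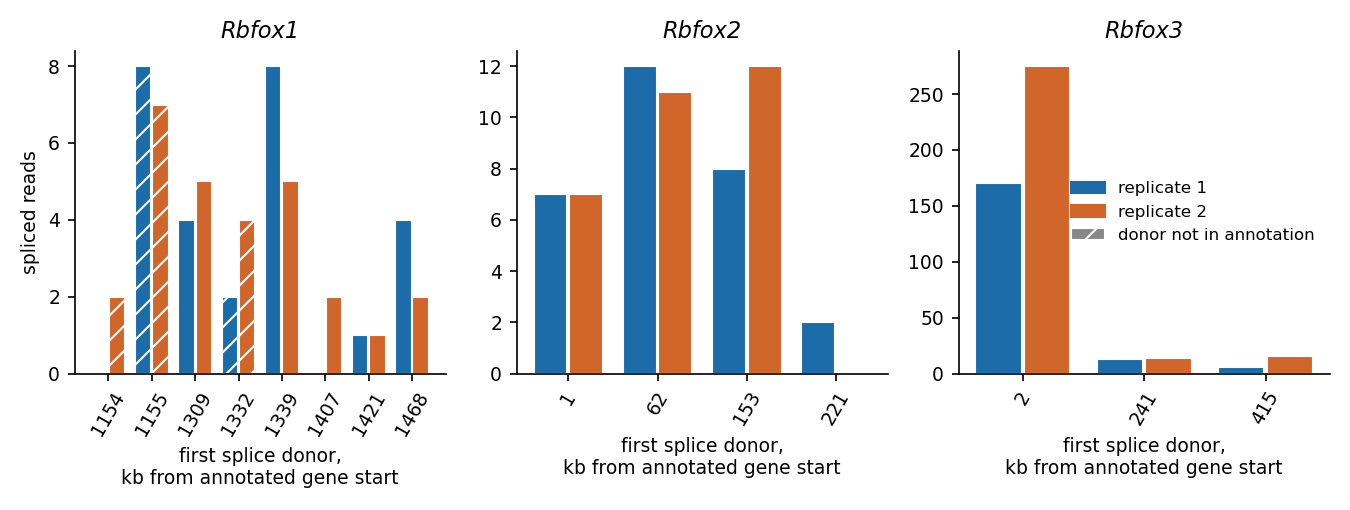
Spliced reads by their first splice donor, given as distance in kb from the annotated gene start, for donors with at least 3% of the reads of Rbfox1, Rbfox2 and Rbfox3; blue is replicate 1, orange replicate 2 and hatched bars are donors not in the annotation. Rbfox2 reads fall mainly on 3 donors, Rbfox1 reads on several and Rbfox3 reads mainly on the first.

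The 93-base exon shown above was present in nearly every read that crossed it. In Rbfox3 it was in 211 and 307 reads and passed over in 0 and 1 (99.8%, Wilson interval 98.9 to 99.97%). In Rbfox2 the reads were 28 and 30 with the exon and 1 and 0 without it (98.3%, 91.0 to 99.7%), and in Rbfox1 22 and 22 with it and 0 and 2 without it (95.7%, 85.5 to 98.8%). Reads without the exon are those with any junction over it, whatever exons that junction joins. In each of the 3 genes, 0 reads joined the leading neighbours of the exon directly. M21 lists 2 coding transcripts of Rbfox2, 1 of Rbfox3 and 0 of Rbfox1 that pass over it.

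The 40-base brain exons were the leading form. Reads of Rbfox1 had it in 23 of 27 in replicate 1 and in 29 of 29 in replicate 2, or 92.9% of 56 reads (Wilson interval 83.0 to 97.2%; two-sided Fisher's exact test, p = 0.0478, adjusted p = 1). In Rbfox2 it was in 19 of 25 and 23 of 27 reads that joined its leading neighbours (80.8%, 68.1 to 89.2%). The 43-base muscle exon was in 0 of 56 Rbfox1 reads that crossed it, which allows a share of up to 5.36% (3 reads; the Wilson upper limit is 6.42%), and in 1 of 60 Rbfox2 reads. Read by read, 49 Rbfox2 molecules held the 40-base exon alone, 1 the 43-base exon alone, 10 neither and 0 both. Among 4 Rbfox1 reads without the 40-base exon, 0 held the 43-base exon.

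A further Rbfox1 exon of 53 bases, chr16:7391988-7392040, is not in M21 and was in 10 of 27 reads of replicate 1 and 12 of 29 of replicate 2 (39.3%, Wilson interval 27.6 to 52.4%). The libraries differed by less than their intervals (Fisher's exact test, adjusted p = 1). Of 52 reads with the 40-base exon, 21 also held the 53-base exon and 31 did not. Of the 15 reads from the unannotated donor at 7040025, 10 held the 53-base exon, as did 4 of 6 from the donor at 7353064, 2 of 9 from that at 7193877, 2 of 13 from that at 7224550 and 1 of 6 from that at 7217829. These are counts on single reads and no test was made. An 81-base exon of Rbfox1 was in 19 of 22 and 17 of 23 reads (80.0%), and a 54-base exon in 18 of 19 and 16 of 18 (91.9%). In Rbfox2, an unannotated exon of 32 bases was in 3 of 22 and 4 of 27 reads (14.3%, 7.10 to 26.7%).

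Nova1 has a 72-base exon that lengthens the protein and is known as a site of autoregulation.
Nova1 72-base exon, chr12:46713498-46713569 (-): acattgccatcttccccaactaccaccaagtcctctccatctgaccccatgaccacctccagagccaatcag
It was in 15 of 19 reads of replicate 1 and 12 of 12 of replicate 2 (87.1%, Wilson interval 71.1 to 94.9%). With fewer than 20 reads in each library it was not tested. An unannotated Nova1 exon of 102 bases was in 1 of 19 and 2 of 12 reads.

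The 34-base Ptbp exons shown above were in all but 1 of the reads that held them whole or passed over them. A further Ptbp2 read, of replicate 2, held a 32-base form of the exon and is not counted here. Ptbp1 is known to cause skipping of the exon in Ptbp2 and so to lower Ptbp2. In Ptbp2 the exon was in 64 of 64 and 92 of 93 reads (99.4%, Wilson interval 96.5 to 99.9%). In Ptbp1 it was in 9 of 9 and 14 of 14 reads (100%, 85.7 to 100%), and in Ptbp3 in 2 of 2 in each library. Transcripts that are degraded would be under-counted in such libraries, and this was not tested. Ptbp1 also has a 78-base exon in the linker between RNA-binding domains, whose skipping is known to weaken its repressor activity.
Ptbp1 78-base exon, chr10:79860117-79860194 (+): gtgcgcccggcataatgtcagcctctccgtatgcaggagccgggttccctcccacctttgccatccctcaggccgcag
It was in 4 of 7 reads of replicate 1 and 8 of 11 of replicate 2 (66.7%, 43.7 to 83.7%), so both forms were present and their shares were not resolved at this depth. An unannotated Ptbp1 exon of 56 bases was in 0 of 5 and 1 of 9 reads.

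**Figure D4:**
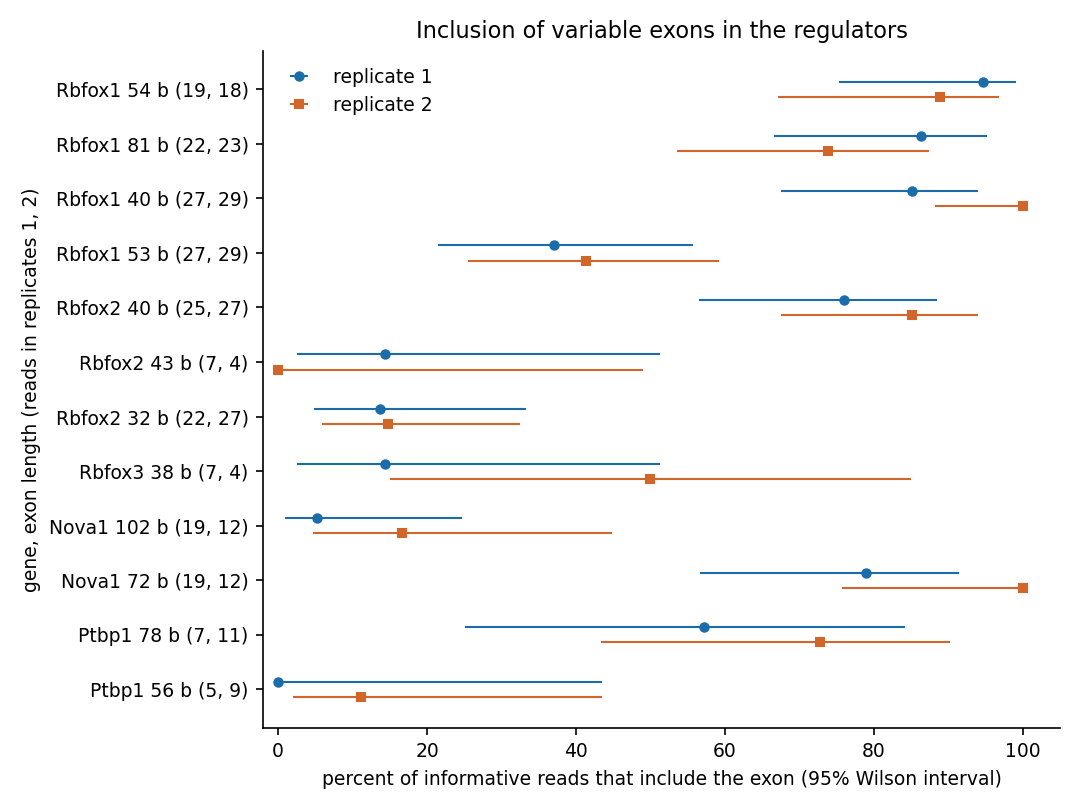
Percent of informative reads that include each variable exon of the regulators, with 95% Wilson intervals; circles are replicate 1, squares replicate 2 and the reads in each are in parentheses. The 40-base exons of Rbfox1 and Rbfox2 lie above 75% in both libraries, the 53-base exon of Rbfox1 near 40%, the Rbfox3 38-base form is set against skipping reads only, and the intervals of the pair of libraries overlap for each exon.

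Fisher's exact tests of inclusion were possible for 9 exons of the regulators and called 0, against 1 of 7474 exons overall (0.0134%). The Rbfox3 38-base form uses an acceptor 2 bases inside that of the annotated 40-base noncoding exon. It was in 1 and 2 reads, beside 186 and 292 with the 40-base form and 6 and 2 that skipped both, so its percentage among including and skipping reads leaves out nearly all reads of the exon.

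Several regulators used a pair of acceptors, and the longer forms are shown with the added bases in capitals.
Rbfox3 exon with the acceptor 141 bases upstream, chr11:118496351-118496531 (-): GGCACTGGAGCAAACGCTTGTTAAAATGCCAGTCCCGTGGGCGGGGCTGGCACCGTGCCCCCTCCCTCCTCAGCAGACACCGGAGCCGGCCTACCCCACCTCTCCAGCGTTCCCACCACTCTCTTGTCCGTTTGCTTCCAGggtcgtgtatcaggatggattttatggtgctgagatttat
Rbfox2 exon start with the acceptor 12 bases upstream, chr15:77098049-77098084 (-): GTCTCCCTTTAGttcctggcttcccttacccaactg
Ptbp2 exon start with the acceptor 15 bases upstream, chr3:119726185-119726220 (-): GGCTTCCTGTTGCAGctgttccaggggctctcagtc
Ptbp2 last exon start with the acceptor 3 bases upstream, chr3:119720437-119720460 (-): AAGagatcacaaaatggctcttct
The upstream Rbfox3 acceptor lengthens a 40-base exon to 181 bases, and the lower-case part differs from the 40-base exon of Rbfox1 at 6 of 40 bases and from that of Rbfox2 at 9. The longer form had 71 of 225 reads in replicate 1 and 107 of 335 in replicate 2, or 31.6% and 31.9% (pooled 31.8%, Wilson interval 28.1 to 35.8%). The upstream Rbfox2 acceptor was used in 10 of 29 and 12 of 31 reads (36.7%, 25.6 to 49.3%), and of these 22 reads 19 also carried the 40-base exon, as did 30 of the 38 reads without the added bases.

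In Ptbp2, the acceptors of the last exon lie 3 bases apart and separate the annotated transcripts Ptbp2-213 and Ptbp2-201. The upstream site had 27 of 64 and 43 of 94 reads (44.3%, Wilson interval 36.8 to 52.1%). The 15-base addition was in 6 of 64 and 13 of 90 reads (12.3%, 8.04 to 18.5%). On single reads, 5 held both additions, 14 the 15-base addition alone, 63 the 3-base addition alone and 72 neither.

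A 3-base choice in Rbfox3 removed the first 3 bases of a coding exon in 12 of 210 and 14 of 309 reads (5.01%, Wilson interval 3.44 to 7.24%). The upper-case bases below are those lost at the unannotated site.
Rbfox3 exon start, chr11:118505737-118505760 (-): CAGgcagatgaagcagcacagaca

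For the whole chain, Rbfox3 was led by Rbfox3-204 with 98 and 161 reads and by a NIC chain with 44 and 80. Rbfox3-204 took 98 of 183 and 161 of 291 reads of the leading isoform test. Ptbp2-213 had 28 and 40 reads and Ptbp2-201 had 23 and 34. Both genes were tested and 0 were called (Fisher's exact test, adjusted p = 1 for each), against 6 of 2516 genes (0.238%). Rbfox2 was spread over 33 chains, of which the first, Rbfox2-209, had 4 and 4 reads. Rbfox1 had 29 chains, and its leading chain, of class ISM, had 5 and 4. Nova1-201 led with 12 and 9 reads, Nova2-202 with 2 and 8, Ptbp1-216 with 4 and 7 and Ptbp3-201 with 2 and 2.

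Exons of genes that these families are known to splice were described as well, from a list of 30 genes. In 14 of them 31 exons were measured with inclusion between 5 and 95%, of which 27 are a multiple of 3 bases long and 5 are no longer than 27 bases. Of the 31, 0 were called, against 1 of 7474 exons overall (0.0134%). Their median difference between the libraries was 5.69 percentage points, against 1.72 over all exons tested, which include exons near 100%. The 63-base exon of Grin1, a subunit of the NMDA receptor, was in 53 of 251 and 52 of 297 reads (21.1% and 17.5%). The 54-base exon of Cltb, a clathrin light chain, was in 85.3% of 217 and 87.0% of 230. The 39-base exon of Dnm1l, a fission GTPase, was in 67 of 117 and 45 of 120 reads (57.3% and 37.5%; Fisher's exact p = 0.002766, adjusted p = 1). The largest difference among the 31 was that of a 171-base exon of Asap1, in 48.3% of 60 and 70.9% of 55 reads (Fisher's exact p = 0.0222, adjusted p = 1), which had as many reads as the last exon plotted and was named after its values were seen.

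**Figure D5:**
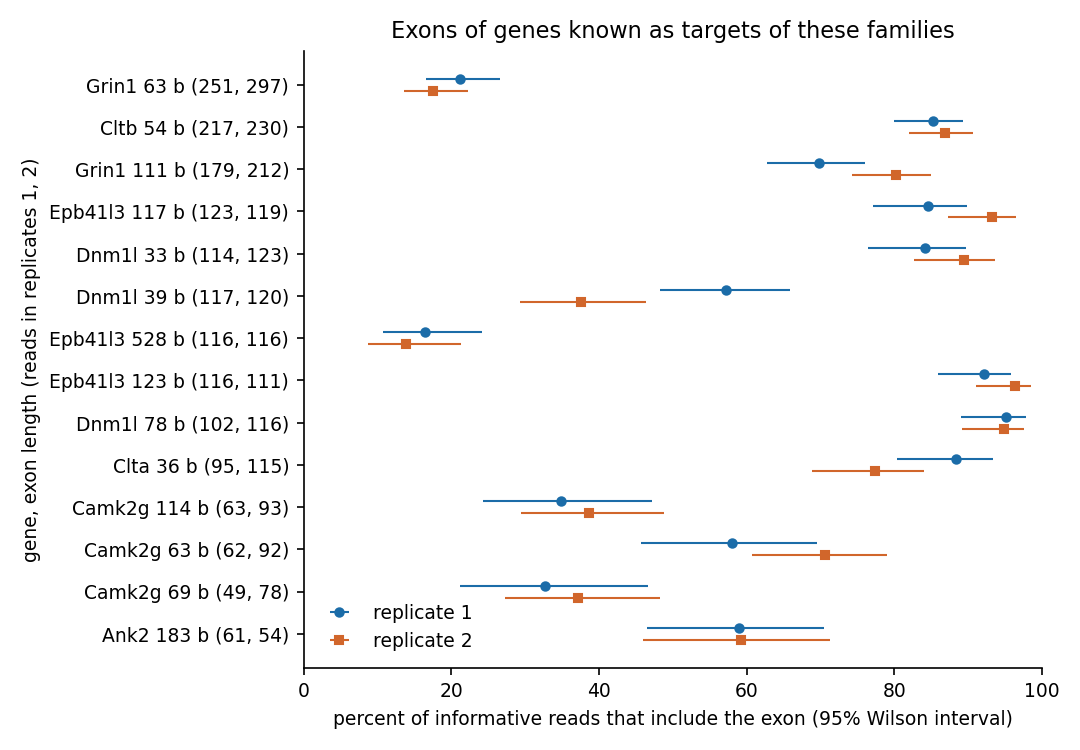
Percent of informative reads that include 14 of the 15 most covered exons of genes known as targets of these families, with 95% Wilson intervals; circles are replicate 1, squares replicate 2, reads in parentheses. Grin1 63-base inclusion is 21.1% and 17.5% and Cltb 54-base inclusion 85.3% and 87.0%; the intervals of the Dnm1l 39-base exon do not overlap.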

How the data were processed

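Reads of 2 long-read RNA-seq libraries of mouse left cerebral cortex were analysed. Per the file headers, the deposited values are whole-number read counts per transcript model, not normalised; each library had its own models on mm10 (GENCODE M21), and new features carry TALON as their source. The aligner is not given in the sources used here. The other deposited columns are exon numbers, lengths and coordinates.

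Counts were summed per gene by symbol and annotated gene identifier, and divided by all mouse reads of the library (775048 and 924222). Unannotated genes carry identifiers of a single library and were left out of tests. The labels give 1 group, so no condition was compared. Two-sided Fisher's exact tests (scipy 1.17.1) with Benjamini-Hochberg adjustment at 0.05 compared the libraries over all genes with at least 10 reads, over leading isoforms with 50 reads, and over first exons and internal exons with 20 reads in each library. They set the difference between 2 libraries against counting error alone. Inclusion counts reads with both junctions of an exon against reads that join its leading neighbours. Shares have 95% Wilson intervals, and ratios add 0.5 reads. On simulated libraries with 200 genes changed 4-fold, the gene test recovered 92.5% in the right direction, with 11190 genes tested and 18 unchanged genes called. Simulated counts varied by Poisson sampling alone. The changed genes were drawn only from genes with a higher mean level than Ptbp1, Nova2, Srrm3, Srrm4 and Ptbp3 had. Recovery was therefore not measured at the depth of these regulators.

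All 10 genes are named, with up to 3 leading chains, each first donor with at least 10% of reads, and each exon with at least 10 informative reads and inclusion between 2 and 98%. Other regulators are named if called or among the 3 highest, and target exons by depth, of which 1 is not reported here. Exons named outside this rule (the 93-base, 34-base and 43-base exons, and the alternative acceptors) were chosen for their known regulation or after their values were seen. The genes and lists were chosen with earlier results of these data known. Alternatives used other model classes, minimums, edgeR 4.0.16 (TMM) and DESeq2 1.42.0 size factors, and 1 library at a time; counting spliced sense reads alone, acceptors without ISM and Genomic models, and spliced opposite-strand reads was chosen after the data were seen. Exon sequences were cut from the M21 transcripts. Intron and protein sequences were not used here.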

Additional observations from a re-analysis of the deposited data

Results flagged for a closer look

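Reads on the strand opposite to 5 regulators exceeded 3 in each library, and are not part of the levels above. Over Rbfox1 they numbered 102 (43 and 59 in replicates 1 and 2) beside 117 sense reads, and 21 of the 102 touched an annotated Rbfox1 exon. Over Nova2 they numbered 98 (50 and 48) beside 39 sense reads, and 93 of the 98 touched the last exon of a coding Nova2 transcript. Over Rbfox2 they numbered 58 (33 and 25), over Rbfox3 44 (16 and 28) and over Srrm3 14 (8 and 6). Of the Rbfox3 reads 3 touched an annotated exon, and of the Srrm3 reads 0 did. None of the reads over these 5 genes had a splice junction. Only 6 of those over Nova2 and 2 of those over Rbfox2 were assigned to an annotated gene.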

How the results depend on the processing

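With 520 and 687 reads in all, the 10 regulators allow narrow shares for Rbfox3 and Ptbp2 only. No paired analysis was possible because there is 1 group and no second group to pair it with. The count of genes called, 236, stayed within 1.5 times under each alternative (166 with Known transcripts alone, 253 with DESeq2 size factors), and 0 regulators were called in any. The lowest adjusted p of a regulator by Fisher's exact test was 0.0522, for Rbfox3 without ISM, Genomic and antisense models. The summed level moved from 707 CPM to 277 with Known transcripts alone and to 562 with spliced sense reads alone (the latter chosen after the data were seen), and ran from 671 to 743 when either library was left out. With Known transcripts alone all 10 levels moved, and Srrm3 was at 0. The genes with a different first exon were 2 of 1462 tested. They became 4 of 2342 with every first donor counted and 1 of 692 with Known transcripts alone, so the number tested changed as well. Of 27 exons of regulators and target genes, inclusion moved in 6 without replicate 1 and in 4 without replicate 2. It moved in 2 with all skipping junctions counted, and in 1 of 26 without ISM and Genomic models. Without replicate 1, inclusion of the 40-base exon of Rbfox1 and the 72-base exon of Nova1 became 100% each, and that of the 43-base exon of Rbfox2 0%. Among target exons, the 111-base exon of Grin1 moved from 75.4% to 58.6% with all skipping junctions. The alternative acceptors moved in 0 of 9 cases without ISM and Genomic models. Counting spliced opposite-strand reads alone gave 0 over the 5 genes.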
